A study of Mus musculus with 2 samples.

Results

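The genes described here were 40 cell cycle and proliferation genes, out of 31054 features in each of 2 single-cell RNA-seq libraries of mouse pancreatic islets. They were chosen by symbol, from their known roles, and are grouped here by role. There were 22 genes of chromosome condensation, spindle and mitotic control (called mitotic members), 10 genes of DNA replication and nucleotide supply, the 2 E cyclins, the 3 D cyclins, and 3 genes that dividing cells use heavily but resting cells also express (Stmn1, Tubb5 and Hmgb2). All 40 genes were found in both feature lists and all 40 had UMIs (unique molecular identifiers, each standing for 1 captured transcript) in both libraries.

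A dividing cell passes through a growth phase, a phase of DNA synthesis, a further growth phase and mitosis. D cyclins bind Cdk4 and Cdk6 and are made in response to growth signals, also in cells that do not go on to divide. E cyclins with Cdk2 then start DNA synthesis, for which the Mcm helicase, the sliding clamp Pcna and the enzymes of nucleotide supply are needed, and the mitotic genes are switched on last, so that their transcripts mark the few cells that are close to division. Adult islet β-cells divide rarely, and Ccnd2 is known in mice as the D cyclin on which the growth of the β-cell mass depends most.

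One library was made from Tg7 islets, of male mice aged 12 weeks that overexpress miR-7a2 in their β-cells, and the other from islets of Wild-type littermates of the same age and sex. Both are labelled as strain C57Bl6. By the study's results section, these islets came from mice with tdTomato-labelled β-cells. Its methods describe this label as a rat Ins2-Cre transgene with a floxed-Stop tdTomato reporter at Rosa26. UMIs of tdTomato were found in 218 of 1006 Tg7 cells and 268 of 755 Wild-type cells. The number of mice pooled per library is not given in the labels or methods. With 1 library per group there was no replicate, so no difference below has a test, and a difference between genotypes cannot be told apart from a difference between these 2 libraries. All intervals are 95% intervals that cover counting error only.

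The Tg7 library held 29931777 UMIs over 1123 barcodes and the Wild-type library 30829078 UMIs over 855 barcodes. A cell was kept if it had 1000 UMIs or more and no more than 20% of them mitochondrial, which left 1006 Tg7 and 755 Wild-type cells, with a median of 24484.5 UMIs per Tg7 cell and 39681 UMIs per Wild-type cell. The 7 hormone genes (Ins1, Ins2, Iapp, Gcg, Sst, Ppy and Pyy) took 43.1% of the UMIs of kept cells in Tg7 and 63.3% in Wild-type. Levels are therefore given per 10000 UMIs outside these genes or as CPM, the usual scaling of gene counts to a fixed total, here also of UMIs outside these genes. Of such UMIs the median cell had 12954 in Tg7 and 12882 in Wild-type. No barcode sequence was shared by the 2 libraries. Clusters made without the members and the hormone genes were named from marker genes as β-like (662 Tg7 and 487 Wild-type cells), α-like (197 and 149), δ-like (83 and 69), γ-like (20 and 9), endothelial-like (19 and 32) and macrophage-like (25 and 9).

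Mitotic transcripts lay in very few cells of either library. Of the 22 mitotic members, 831 of 1006 Tg7 cells had none and 148 had 1, and 641 of 755 Wild-type cells had none and 100 had 1. A further 19 Tg7 cells held 2 members and 1 held 4. In Wild-type 7 cells held 2 members, 2 cells held 3 and 1 cell held 4. The remaining 7 Tg7 cells held 5, 7, 10, 15, 19, 19 and 21 mitotic members, and the remaining 4 Wild-type cells held 13, 16, 21 and 21. Wild-type counts thus had a gap between 4 and 13 members. Tg7 counts had none between 4 and 5, so the limit of 5 used below does not fall at a break there. A cell with UMIs of at least 5 of the 22 mitotic members is called a cell with several mitotic members from here on. Such cells made up 0.696% of Tg7 cells (interval 0.280% to 1.43%) and 0.530% of Wild-type cells (interval 0.145% to 1.35%), and the intervals overlapped over most of their width.

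**Figure D1:**
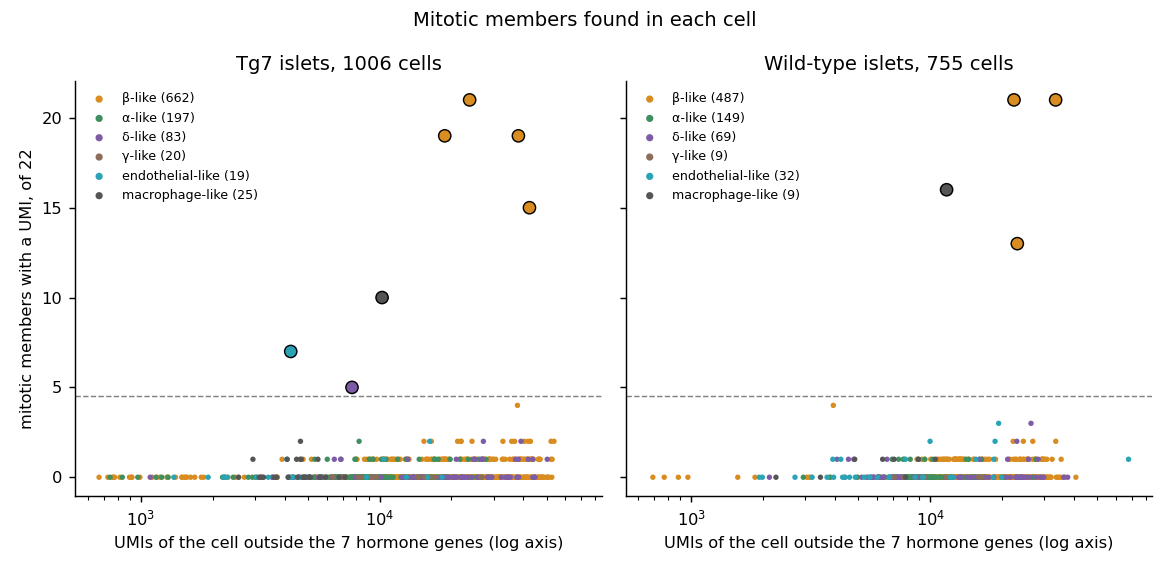
Number of mitotic members with a UMI (of 22, vertical axis) in each cell against the cell's UMIs outside the 7 hormone genes (horizontal log axis), for Tg7 (left) and Wild-type (right) islets, coloured by class with the number of cells in brackets. Large outlined points above the dashed line are the 7 Tg7 and 4 Wild-type cells with at least 5 mitotic members, and nearly all other cells lie at 0 or 1.

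By class, the cells with several mitotic members were 4 β-like, 1 macrophage-like, 1 δ-like and 1 endothelial-like cell in Tg7, and 3 β-like cells and 1 macrophage-like cell in Wild-type. In β-like cells they were 4 of 662 Tg7 cells (0.604%, interval 0.165% to 1.54%) and 3 of 487 Wild-type cells (0.616%, interval 0.127% to 1.79%). In α-like cells there was none, which is 0 of 197 Tg7 cells (allowing a share of up to 1.52%, the share that 3 cells would make) and 0 of 149 Wild-type cells (up to 2.01%). In γ-like cells no mitotic member had a UMI in any of the 20 Tg7 or 9 Wild-type cells. Classes with so few cells cannot show a difference of this size at this depth.

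None of the 11 cells was called a doublet. The most strongly marked was a Tg7 β-like cell with 21 mitotic members and 411 mitotic UMIs among 32452 UMIs. The other Tg7 β-like cells held 186, 86 and 71 mitotic UMIs, and the 3 Wild-type β-like cells 184, 127 and 20. The Tg7 β-like cell with 86 mitotic UMIs was above the threshold for glucagon as well as insulin (Gcg took 4.94% of its UMIs). The Tg7 β-like cell with 411 mitotic UMIs alone held 74 of the 125 Cenpf UMIs and 59 of the 98 Ube2c UMIs of its library. Cenpf is a kinetochore protein, and Ube2c is the ubiquitin-conjugating enzyme through which the anaphase-promoting complex destroys cyclin B.

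Outside the β-like class the marked cells were more varied. The macrophage-like cells with several mitotic members held 10 mitotic members and 20 mitotic UMIs in Tg7, and 16 members and 58 UMIs in Wild-type. Each was the deepest cell of its class in its library and held 184 UMIs of Cd74, the invariant chain of MHC class II. The Tg7 cell in the endothelial-like class had no UMI of the endothelial markers Pecam1 and Kdr and UMIs of 2 other endothelial markers, but held UMIs of 5 of 6 fibroblast markers, among them 39 of Dcn and 23 of Col3a1, so its own markers go against the name of its cluster. The Tg7 δ-like cell had Sst at 13.8% and Pyy at 6.70% of its UMIs.

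These cells differed in how far mitotic or replication transcripts led. The 12 replication members and E cyclins together are called the synthesis members in what follows. The Tg7 β-like cell with 411 mitotic UMIs had only 6 UMIs of synthesis members, and the one with 71 mitotic UMIs had 3. The Tg7 β-like cell with 186 mitotic UMIs had 80 UMIs over all 12 synthesis members, and the one with 86 had 25. The Tg7 δ-like cell went the other way, with 7 mitotic and 23 synthesis UMIs, and the Tg7 macrophage-like cell had 20 and 23. In Wild-type the 3 β-like cells had 37, 14 and 6 synthesis UMIs beside 127, 184 and 20 mitotic UMIs. Only 1 kept cell held at least 8 synthesis members without several mitotic members, a Wild-type β-like cell with 8 synthesis members and 1 mitotic member. Of the other 8 cells with at least 8 synthesis members, 5 were Tg7 and 3 were Wild-type, and all had several mitotic members.

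**Figure D2:**
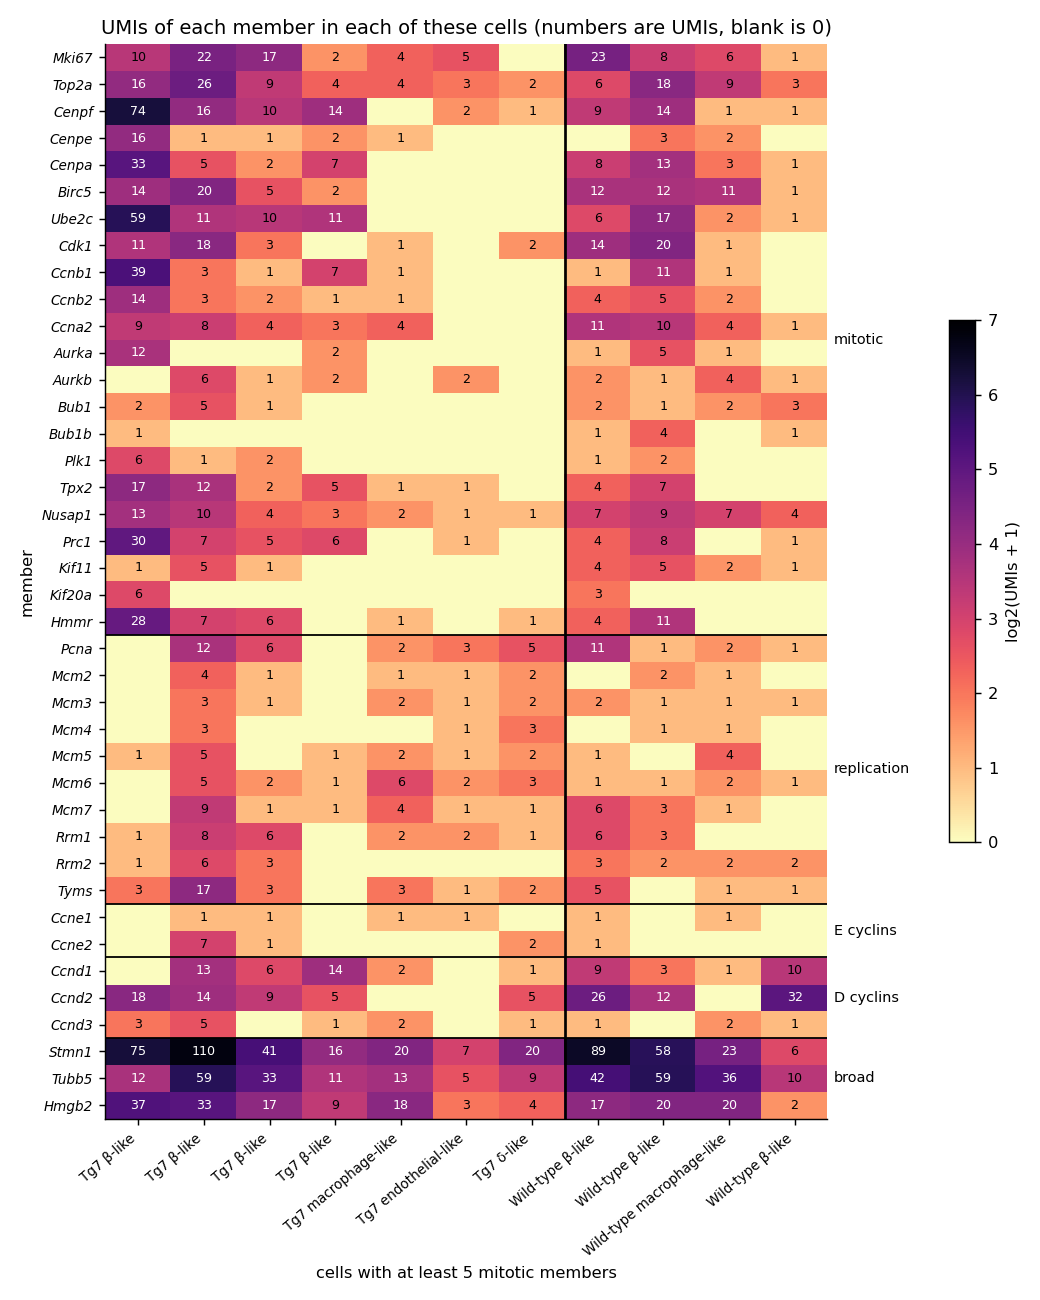
UMIs of each of the 40 members (rows, grouped by role) in each cell with at least 5 mitotic members (columns, 7 Tg7 cells left of the thick line and 4 Wild-type cells right of it, named by class); numbers are UMIs, colour is log2(UMIs + 1) and blank squares are 0. The first Tg7 cell shows the highest Cenpf, Ube2c and Ccnb1 UMIs and almost no replication UMIs, while Stmn1, Tubb5 and Hmgb2 have UMIs in all 11 cells.

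The cells with several mitotic members were chosen by the mitotic members, so the share of mitotic UMIs that they hold is a description. They held 796 of 992 mitotic UMIs in Tg7 (80.2%) and 389 of 552 in Wild-type (70.5%). Several mitotic members had most or all of their UMIs in them in both libraries. Hmmr, a spindle-associated hyaluronan receptor, had 43 of 44 Tg7 UMIs and 15 of 16 Wild-type UMIs there. The spindle assembly factor Tpx2 had 38 of 38 in Tg7 and 11 of 13 in Wild-type, and Nusap1, a microtubule-bundling protein of the spindle, 34 of 37 in Tg7 and 27 of 27 in Wild-type. The kinase Cdk1, which drives entry into mitosis, had 35 of 36 in Tg7 and 35 of 42 in Wild-type. Birc5 (survivin), of the chromosomal passenger complex, had 41 of 51 in Tg7 and 36 of 36 in Wild-type, and the checkpoint kinase Bub1 had all 8 of its UMIs there in each library.

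Mki67 and Top2a, the usual markers of cycling cells, were less confined. Mki67 had 60 of 78 Tg7 UMIs and 38 of 53 Wild-type UMIs in these cells, with another 18 UMIs in 18 Tg7 cells and 15 UMIs in 14 Wild-type cells. Top2a, the topoisomerase that untangles replicated chromosomes, had 64 of 77 Tg7 UMIs and 36 of 54 Wild-type UMIs in them. The lowest shares in Tg7 were those of the checkpoint gene Bub1b and the kinesins Kif20a and Kif11. Kif20a had 6 of its 27 UMIs in these cells in Tg7 and 3 of 13 in Wild-type, Kif11 had 7 of 24 and 12 of 25, and Bub1b 1 of 7 and 6 of 9. In Wild-type the lowest shares after that of Kif20a were those of Prc1, Aurka and Cenpa. Outside these cells the UMIs of the mitotic members came mostly singly: the 28 Prc1 UMIs of Tg7, for a protein of the central spindle, lay in 27 cells, and the 21 of Kif20a in 21 cells. Some Wild-type cells were exceptions. Ccnb1, cyclin B1, had 7 UMIs each in 1 β-like and 1 δ-like cell of Wild-type that held 1 and 3 mitotic members. Top2a had 5 UMIs in 1 Wild-type β-like cell, and Cenpa and Prc1 had 4 UMIs each in 1 Wild-type endothelial-like cell. The 29 Cenpa UMIs of Wild-type outside these cells lay in 18 cells. Over the 22 mitotic members the total per gene lay between 7 UMIs (Bub1b) and 125 UMIs (Cenpf) in Tg7, and between 4 UMIs (Plk1) and 54 UMIs (Top2a and Cenpa) in Wild-type.

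The other mitotic members had shares over the whole range, which for some differed between the libraries. Cenpe had 21 of 23 UMIs in these cells in Tg7 and 5 of 5 in Wild-type, and Ube2c had 91 of 98 in Tg7 and 26 of 28 in Wild-type. Cenpf had 117 of 125 in Tg7 and 25 of 33 in Wild-type, and Cenpa, the histone that marks centromeres, 47 of 65 in Tg7 and 25 of 54 in Wild-type. The cyclins Ccnb2 and Ccna2 had 21 of 25 and 28 of 44 in Tg7, and 11 of 11 and 26 of 32 in Wild-type. Ccnb1 had 51 of 55 in Tg7 and 13 of 27 in Wild-type. Among the mitotic kinases, Aurkb had 11 of 12 in Tg7 and 8 of 8 in Wild-type, Plk1 had 9 of 12 in Tg7 and 3 of 4 in Wild-type, and Aurka had 14 of 29 in Tg7 and 7 of 17 in Wild-type. Prc1 had 49 of 77 in Tg7 and 13 of 37 in Wild-type.

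Outside these cells the mitotic level was low in the endocrine classes and higher in the others. In β-like cells it was 0.111 mitotic UMIs per 10000 in Tg7, against 0.120 in Wild-type. It was 0.115 in Tg7 and 0.0822 in Wild-type α-like cells, and 0.109 in Tg7 and 0.193 in Wild-type δ-like cells. It was 0.330 in Tg7 and 0.794 in Wild-type endothelial-like cells, from 4 and 26 UMIs, and 0.907 in Tg7 and 1.37 in Wild-type macrophage-like cells, from 10 and 7 UMIs.

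Cells with 1 to 4 mitotic members were deeper than cells with none: their median was 36548 against 22931 UMIs in Tg7, and 45563 against 38975 UMIs in Wild-type. When every cell was thinned to 2000 UMIs outside the hormone genes, which left out 34 Tg7 and 8 Wild-type cells, a mitotic UMI was found in 3.70% of Tg7 cells and 3.75% of Wild-type cells, where the unthinned shares were 17.4% and 15.1%. At least 3 mitotic members were still found in 5 thinned Tg7 cells and 3 thinned Wild-type cells. The part of free RNA in the single UMIs was not tested.

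Most mitotic members share a promoter element. In mice and humans the transcription of mitotic genes in resting cells is held down, and later raised, by protein complexes that bind the cell cycle genes homology region (CHR), which is read as TTTGAA or TTCGAA. The RefSeq promoter windows of build GRCm38.p6 (from 250 bases before to 50 after each start site) held an entry for 31 of the 40 members, with none for Aurkb, Stmn1, Ccnd1, Ccnd2, Kif20a, Tpx2, Ccne2, Mcm4 and Ccna2. Searched on both strands, a CHR match was found in 14 of 18 mitotic members (77.8%), 2 of 9 replication members (22.2%) and 21.7% of all 27025 genes with a window. All 14 also held a CCAAT match, a pair found in 8.61% of all genes. An E2F motif (TTTCCCGC, TTTGGCGC, TTTCGCGC or TTTGCCGC) was found in 1 of 18 mitotic members, in 4 of 9 replication members (Mcm3, Mcm5, Mcm6 and Mcm7) and in 2.61% of all genes. Matches could overlap one another, and a match is a description of the letters in a window, not a site shown to be bound. The following stretches upstream of the start are shown because they carry the CHR letters (in capitals, 5′ to 3′ on the gene's strand) of mitotic members with high and with low shares of their UMIs in these cells.
Cdk1 (chr10:69352966-69352995, minus strand): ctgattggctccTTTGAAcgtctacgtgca
Ube2c (chr2:164769888-164769917, plus strand): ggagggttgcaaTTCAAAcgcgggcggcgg
Ccnb2 (chr9:70421704-70421733, minus strand): cagggactagaaTTTGAAaataagactgta
Top2a (chr11:99024312-99024341, minus strand): ctaattggtttaTTCGAAaaggcggtcttt
Prc1 (chr7:80294434-80294463, plus strand): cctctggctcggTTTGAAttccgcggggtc
Mki67 (chr7:135716460-135716489, minus strand): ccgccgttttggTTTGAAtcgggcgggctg
Kif11 (chr19:37376351-37376380, plus strand): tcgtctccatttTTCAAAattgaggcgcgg
The capitals TTCAAA in Ube2c and Kif11 are TTTGAA read on the opposite strand. The letters were found in Cdk1, with 35 of 36 Tg7 UMIs in the cells with several mitotic members, and also in Kif11, with 7 of 24.

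The replication members did not choose the cells, and only a small part of their UMIs lay in them. The cells with several mitotic members held 160 of 1725 replication UMIs in Tg7 (9.28%, interval 7.95% to 10.7%) and 70 of 1099 in Wild-type (6.37%, interval 4.999% to 7.98%), against 0.858% and 0.807% of all UMIs outside the hormone genes. Per 10000 such UMIs, that is 11.01 replication UMIs in these cells against 0.932 in the other cells of Tg7, and 7.71 against 0.922 in Wild-type. Within β-like cells the summed level was 9.31 times as high in the cells with several mitotic members as in the others in Tg7 (interval 7.54 to 11.4). In Wild-type it was 8.21 times as high (6.12 to 10.8). The cells were unlike, and these intervals do not cover the spread between them. By cell the level was 12.3, 18.9, 0.707 and 2.52 per 10000 in Tg7, against 0.907 in the other β-like cells. In Wild-type it was 10.4, 2.59 and 6.24, against 0.847. Summed in the same way, the clamp Pcna was 5.06 times as high in Tg7 and 4.03 times in Wild-type. Thymidylate synthase Tyms was 20.6 and 10.9 times as high, and Rrm2, the regulated subunit of ribonucleotide reductase, 16.9 and 16.5 times. By cell, Pcna was at 3.2, 3.15, 0 and 0 per 10000 in Tg7, against 0.289 in the other β-like cells.

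The rest of the replication UMIs were spread thinly over all classes. A UMI of some synthesis member was found in 69.4% of Tg7 cells and 68.6% of Wild-type cells, and after thinning in 20.8% and 19.5%. Pcna alone had 525 Tg7 UMIs in 362 cells and 490 Wild-type UMIs in 317 cells, of which 28 and 15 lay in cells with several mitotic members. The largest totals after Pcna were those of Rrm1, with 246 Tg7 and 104 Wild-type UMIs, and Mcm7, with 204 and 73. Tyms had 185 Tg7 and 88 Wild-type UMIs, Mcm6 had 156 and 103, Mcm2 had 134 and 68, and Mcm4 had 109 and 68. Rrm2 had 81 Tg7 and 62 Wild-type UMIs, and Mcm5 had 62 and 23. Without the cells with several mitotic members, the β-like cells held 0.907 replication UMIs per 10000 in Tg7, against 0.847 in Wild-type. The values were 0.914 and 1.06 in α-like cells, 1.57 and 1.89 in endothelial-like cells, and 2.18 and 1.56 in macrophage-like cells. Mcm3 had the largest share of its UMIs in the cells with several mitotic members among the helicase subunits, with 9 of 23 in Tg7 and 5 of 20 in Wild-type. The E cyclins were scarce: 63 Tg7 and 32 Wild-type UMIs came from Ccne1, and 100 Tg7 and 38 Wild-type UMIs from Ccne2. Cells with several mitotic members held 8.59% of the Tg7 and 4.29% of the Wild-type E cyclin UMIs, which is 14 and 3 UMIs.

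The 3 members that resting cells also express differed among themselves. Stmn1, which takes microtubules apart and is made by dividing cells, had 289 of 375 Tg7 UMIs (77.1%) and 176 of 256 Wild-type UMIs (68.8%) in the cells with several mitotic members, although it took no part in choosing them. Within β-like cells it was 519 times as high in these cells as in the others in Tg7 and 453 times in Wild-type, where the mitotic members together were 551 and 350 times as high. It had a UMI in 6.34% of Tg7 β-like cells and 5.13% of Wild-type β-like cells. The tubulin gene Tubb5 was 10.8 times as high in Tg7 and 17.99 times in Wild-type, and the chromatin protein Hmgb2 11.7 and 5.29 times, but both were found in most cells of either library. Tubb5 had 1658 UMIs in 696 Tg7 cells and 1147 UMIs in 506 Wild-type cells. Hmgb2 had 1517 UMIs in 653 Tg7 cells and 1267 UMIs in 546 Wild-type cells.

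The summed D cyclin UMIs did not follow the mitotic members. Cells with several mitotic members held 0.773% of the D cyclin UMIs in Tg7 (interval 0.629% to 0.941%) and 0.640% in Wild-type (0.520% to 0.781%), no more than their share of all UMIs outside the hormone genes. Within β-like cells the D cyclin level was 1.06 times as high in these cells as in the others in Tg7 (interval 0.847 to 1.304) and 0.798 times in Wild-type (0.644 to 0.977). Ccnd2 alone was 0.847 times as high in Tg7 and 0.717 times in Wild-type. Over all cells Ccnd2 had 8891 Tg7 UMIs and 12372 Wild-type UMIs, Ccnd1 had 2973 and 2208, and Ccnd3 had 938 and 570.

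**Figure D3:**
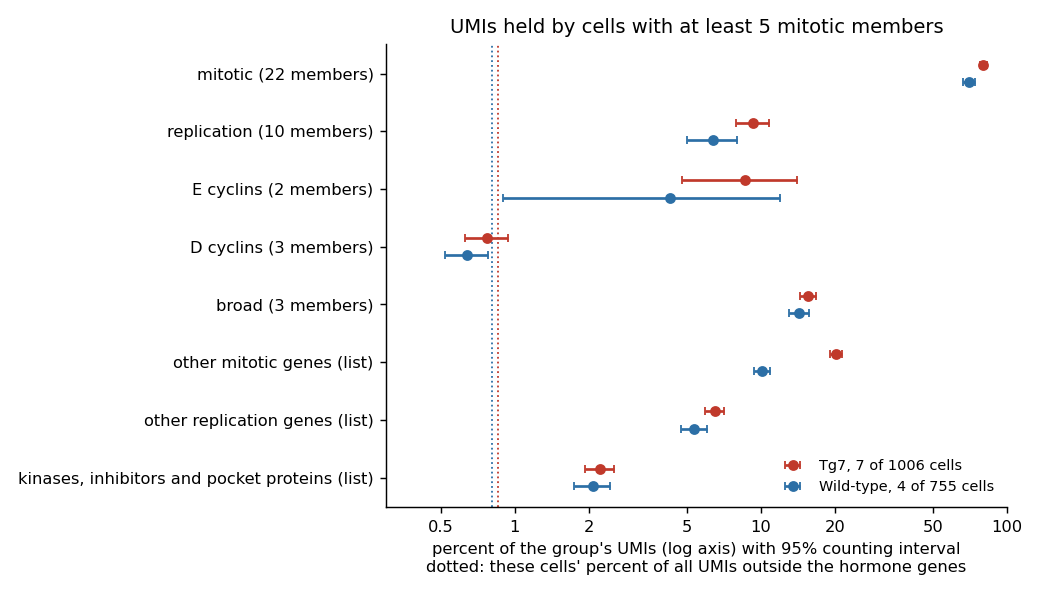
Percent of the UMIs of each group of members or list of other cell cycle genes (vertical axis) that lay in the cells with at least 5 mitotic members (horizontal log axis), for Tg7 (red, 7 of 1006 cells) and Wild-type (blue, 4 of 755 cells), with 95% counting intervals; dotted lines mark these cells' percent of all UMIs outside the hormone genes, 0.858% and 0.807%. Mitotic members chose the cells and stand highest, replication members and E cyclins lie below 10%, and D cyclins lie at the dotted lines.

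Other cell cycle genes showed the same grading. A list of 49 other mitotic genes had 20.2% of its UMIs in these cells in Tg7 and 10.1% in Wild-type, but without 1 gene, Spc25, the shares were 24.4% and 23.8%. The shares were 6.49% and 5.36% for 44 other replication genes, and 2.22% and 2.07% for 20 cell cycle kinases, inhibitors and pocket proteins. The 5 genes of these lists with the most UMIs there were Spc25, Smc4, Cks2, Pbk and H2afx. The mitotic kinase Pbk had 43 of 43 UMIs in these cells in Tg7 and 45 of 45 in Wild-type. The Cdk-binding protein Cks2 had 58 of 102 in Tg7 and 42 of 70 in Wild-type, and the condensin subunit Smc4 had 78 of 410 and 48 of 279. The histone variant gene H2afx had 42 of 555 in Tg7 and 34 of 390 in Wild-type, and the kinetochore gene Spc25 had 97 of 1214 and 122 of 4213.

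The next comparison set Tg7 against Wild-type β-like cells as a whole, the class in which the transgene is expressed. A ratio is a member's CPM in Tg7 over its CPM in Wild-type, with CPM taken over UMIs outside the hormone genes. It was taken for the 35 members that had 20 UMIs or more when the libraries were added, which left out Aurkb (10 UMIs in Tg7 and 4 in Wild-type), Bub1 (8 and 6), Bub1b (5 and 8), Plk1 (9 and 3) and Mcm3 (11 and 7). Of the 35, 25 were higher in Tg7 and 10 lower, with a median log2 ratio of 0.26, where the median over all 12845 genes was -0.02 and 48.5% were higher. A ratio of at least 2 was reached by 6 members (Cenpf, Cenpe, Ube2c, Mcm5, Mcm7 and Ccne2), or 17.1%, against 10.5% of all genes, and 1 member, Ccnd2, was at least 2-fold lower, against 5.78% of all genes. Of the 6, only Mcm7 stayed at least 2-fold higher under every other setting with 2-fold counts. Ccne2 fell below 2-fold when called doublets were removed. Without all cells with several mitotic members only Mcm7 reached 2-fold, or 4.55% of the measured members, against 10.5% of all genes. Scaled to all UMIs instead, with hormones included, the median of all genes was 0.78 and that of the members 1.06.

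The ratios of the mitotic members turned on single cells. Without the Tg7 β-like cell with 411 mitotic UMIs (a comparison chosen after the data were seen), 33 members had enough UMIs, of which 10 were higher and 23 lower in Tg7, the median was -0.17, and Mcm7 and Ccne2 were the members at least 2-fold higher. Cdk1 joined Ccnd2 as at least 2-fold lower. Over all genes 10.5% were then at least 2-fold higher and 5.84% at least 2-fold lower. This cell was chosen for its mitotic UMIs and left out of Tg7 alone, so the mitotic ratios could only fall. The log2 ratio of Cenpf was 1.299 with this cell and -0.12 without it, and that of Ube2c was 1.27 with it and -0.080 without it. The sign changed for 14 of the mitotic members. When the Wild-type β-like cell with the most mitotic UMIs, 184, was left out as well, 32 members had enough UMIs, of which 22 were higher and 10 lower, with a median of 0.23. Ube2c, Tpx2, Mcm7 and Ccne2 were then at least 2-fold higher and Ccnd2 at least 2-fold lower, against 10.6% and 5.80% of all genes. The log2 ratio was 0.74 for Cenpf and 1.45 for Ube2c. Without all cells with several mitotic members, 22 members were left, 12 higher and 10 lower, with a median of 0.16.

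**Figure D4:**
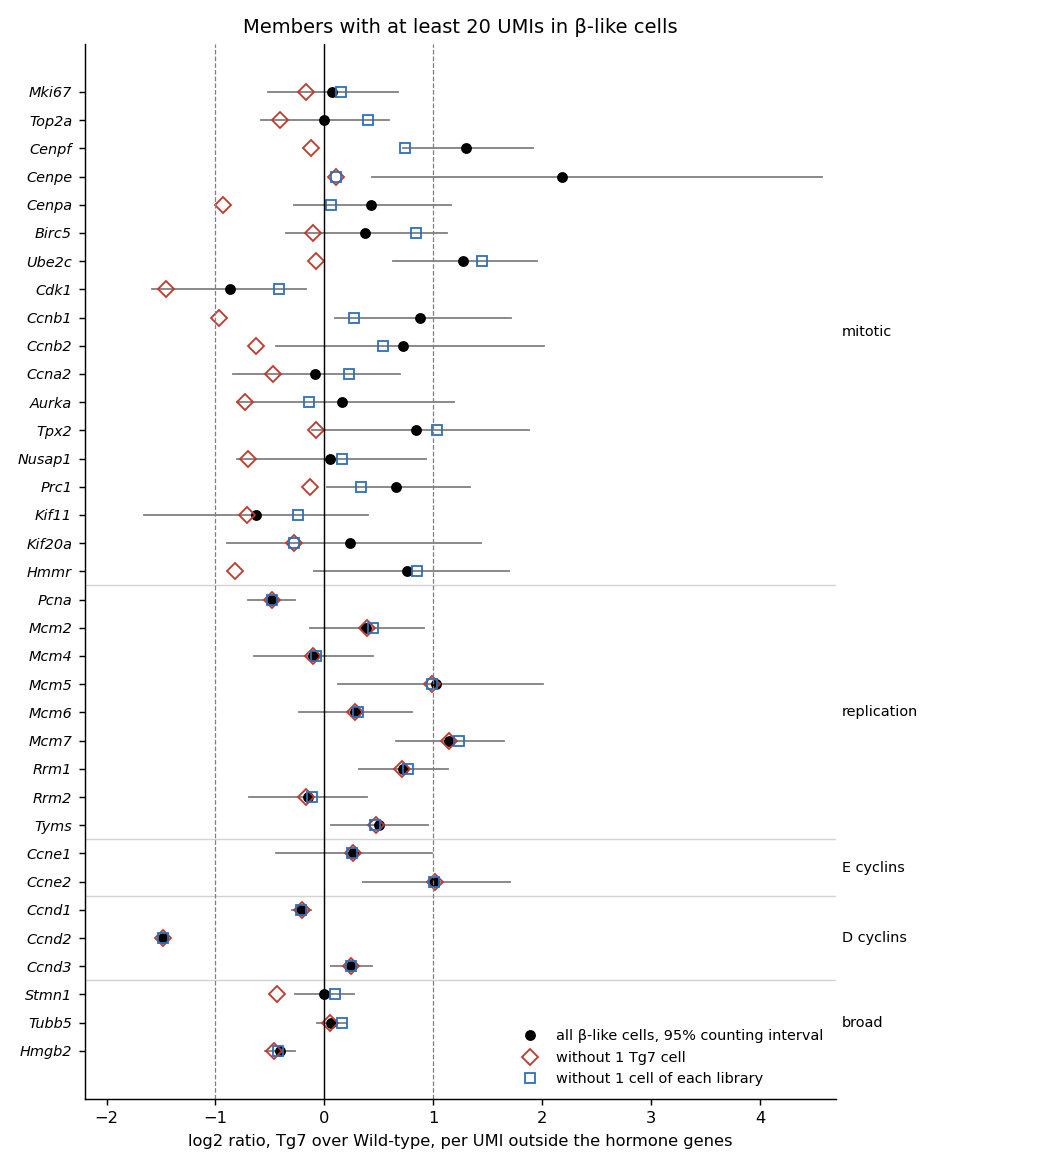
Log2 ratio of Tg7 over Wild-type β-like cells per UMI outside the hormone genes (horizontal axis) for the 35 members with at least 20 UMIs (vertical axis, grouped by role); black points with 95% counting intervals are all β-like cells, red diamonds leave out the Tg7 cell with 411 mitotic UMIs, blue squares leave out that cell and the Wild-type cell with 184, and dashed lines mark 2-fold. Diamonds lie left of the points for most mitotic members and squares lie on either side, while all 3 markers nearly coincide for the replication members and the E and D cyclins; scaled to all UMIs, Ccna2, Kif11, Pcna, Mcm4, Rrm2, Ccnd1, Stmn1 and Hmgb2 turn to the other side of 0, while Ccnd2, the lowest point, stays below it.

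Among the mitotic members of β-like cells, 15 of 18 were higher in Tg7, with a median of 0.40. Cenpf was at 9.22 CPM in Tg7 and 3.75 in Wild-type, a ratio of 2.46 (interval 1.64 to 3.78). The kinetochore motor Cenpe was at 1.64 in Tg7 and 0.363 in Wild-type, a ratio of 4.52 (1.35 to 23.7) from 21 and 3 UMIs. Ube2c was at 7.58 in Tg7 and 3.14 in Wild-type, a ratio of 2.41 (1.55 to 3.87). Without the Tg7 cell with 411 mitotic UMIs none of these 3 reached 2-fold, and without the top cell of each library Ube2c did. Ccnb1 was at 4.22 in Tg7 and 2.30 in Wild-type (ratio 1.84, 1.07 to 3.28), and Prc1 at 5.55 and 3.51 (1.58, 1.01 to 2.53). The Tg7 cell with 411 mitotic UMIs held 39 Ccnb1 and 30 Prc1 UMIs. Both genes turned to lower in Tg7 without it, but stayed higher without the top cell of each library. Cdk1 was lower, at 2.58 in Tg7 and 4.71 in Wild-type (0.547, 0.333 to 0.892). Of its 39 Wild-type UMIs, 20 lay in a single cell and 14 in another. The counting intervals do not cover such clustering of UMIs in single cells.

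For the other mitotic members the counting interval held 1. Mki67 was at 5.08 CPM in Tg7 and 4.84 in Wild-type (ratio 1.05, 0.698 to 1.60), and Top2a at 5.08 in both (1.0002, 0.668 to 1.51). The centromeric histone Cenpa was at 4.22 in Tg7 and 3.14 in Wild-type (1.34, 0.826 to 2.23), and Birc5 at 3.91 and 3.02 (1.29, 0.785 to 2.18). The cyclins Ccnb2 and Ccna2, partners of Cdk1, had ratios of 1.65 (0.736 to 4.06; 1.80 in Tg7 and 1.09 in Wild-type) and 0.945 (0.559 to 1.62; 2.97 and 3.14), and that of Ccna2 was 1.65 when scaled to all UMIs. The spindle genes spanned a range of ratios. Tpx2 was at 2.81 in Tg7 and 1.57 in Wild-type (1.79, 0.927 to 3.68), Nusap1 at 2.50 and 2.42 (1.03, 0.574 to 1.91), and Hmmr at 3.28 and 1.93 (1.70, 0.934 to 3.23). The mitotic kinase Aurka was at 2.03 in Tg7 and 1.81 in Wild-type (1.12, 0.572 to 2.28). The kinesin Kif20a was at 1.56 in Tg7 and 1.33 in Wild-type (1.18, 0.537 to 2.72). The kinesin Kif11 was at 1.41 and 2.18 (0.646, 0.317 to 1.32, and 1.13 scaled to all UMIs).

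The replication members of β-like cells were less tied to single cells, and 6 of 9 were higher in Tg7, with a median of 0.39. The helicase subunit Mcm7 was at 12.3 CPM in Tg7 and 5.56 in Wild-type, a ratio of 2.21 (1.58 to 3.13). Mcm5 was at 3.44 in Tg7 and 1.69 in Wild-type (2.03, 1.09 to 4.01). Rrm1, the large subunit of ribonucleotide reductase, was at 14.5 in Tg7 and 8.82 in Wild-type (1.65, 1.25 to 2.19), and Tyms at 10.8 and 7.62 (1.42, 1.04 to 1.94). Pcna went the other way, at 29.999 in Tg7 and 41.9 in Wild-type (0.715, 0.617 to 0.829), but was higher in Tg7 when scaled to all UMIs, with a ratio of 1.25. The intervals of the rest held 1. Mcm2 was at 7.58 in Tg7 and 5.80 in Wild-type (1.31, 0.915 to 1.89), and Mcm6 at 7.34 and 6.04 (1.22, 0.853 to 1.75). Mcm4 was at 5.62 in Tg7 and 6.04 in Wild-type (0.931, 0.640 to 1.36; 1.62 scaled to all UMIs), and Rrm2 at 5.55 and 6.16 (0.8997, 0.619 to 1.32; 1.57 scaled to all UMIs).

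Of the E cyclins in β-like cells, Ccne2 was higher, at 6.33 CPM in Tg7 and 3.14 in Wild-type (ratio 2.01, 1.28 to 3.26), from 81 and 26 UMIs. Ccne1 was at 3.91 in Tg7 and 3.26 in Wild-type, and its interval held 1 (1.20, 0.735 to 1.99). Of the members that resting cells also express, Tubb5 was at 94.7 in Tg7 and 90.7 in Wild-type (1.04, 0.953 to 1.15), and Stmn1 at 22.7 in both (0.997, 0.827 to 1.20; 1.74 scaled to all UMIs). Hmgb2 was at 73.3 in Tg7 and 96.9 in Wild-type (0.756, 0.687 to 0.832), which became 1.32 when scaled to all UMIs.

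Per UMI outside the hormone genes, Ccnd2 showed the widest gap of any member with more than 100 UMIs. Its UMIs numbered 5642 among Tg7 β-like cells, against 10179 among Wild-type β-like cells, or 441 and 1230 CPM, a ratio of 0.358 (interval 0.347 to 0.370), which is 2.79-fold lower. Scaled to all UMIs it was still lower, at 0.625 (0.605 to 0.646), though no longer by 2-fold, and several members then had wider gaps, among them Cenpf and Mcm7 with log2 ratios of 2.10 and 1.95. The median Tg7 β-like cell had 3.78 Ccnd2 UMIs per 10000 (quartiles 2.167 and 5.90) and the median Wild-type β-like cell 11.1 (quartiles 7.58 and 15.02), so the upper quartile in Tg7 lay below the lower quartile in Wild-type. No Ccnd2 UMI was found in 59 of the 662 Tg7 β-like cells, against 5 of the 487 Wild-type β-like cells. After thinning to equal depth, 52.7% of Tg7 β-like cells (interval 48.8% to 56.7%) and 86.5% of Wild-type β-like cells (83.1% to 89.4%) had a Ccnd2 UMI, where the unthinned shares were 91.1% and 99.0%. In macrophage-like cells, the class with the least Ccnd2, it was found unthinned with 8 UMIs in Tg7 and none in Wild-type.

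The lower Ccnd2 level was found in each β-like cluster. The clusters had 340, 422 and 514 CPM in Tg7, against 1107, 1089 and 1562 in Wild-type, with ratios of 0.307, 0.387 and 0.329. Removing called doublets gave 0.353. Leaving out β-like cells above threshold for glucagon, somatostatin or pancreatic polypeptide, which kept 535 Tg7 and 476 Wild-type cells, gave 0.325. Per UMI outside the hormone genes the other D cyclins differed less. Ccnd1 was at 183 CPM in Tg7 β-like cells and 212 in Wild-type β-like cells (0.864, 0.811 to 0.919), which became 1.51 when scaled to all UMIs, and Ccnd3 was at 53.1 and 44.7 (1.19, 1.04 to 1.35), which became 2.07 (1.82 to 2.36).

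In α-like cells Ccnd2 was on the other side of 1. It was at 1046 CPM in Tg7 and 781 in Wild-type, from 2095 and 1140 UMIs, a ratio of 1.34 (interval 1.25 to 1.44), and 1.24 when scaled to all UMIs. The median α-like cell had 9.23 Ccnd2 UMIs per 10000 in Tg7 and 6.80 in Wild-type. In δ-like cells it was at 589 in Tg7 and 873 in Wild-type (0.674, 0.615 to 0.739). The δ-like class also carried β-cell transcripts: the 20 β markers took 27.9% of its UMIs in Tg7 and 34.8% in Wild-type, and the 9 δ markers 3.01% and 3.98%. A further comparison, chosen after the data were seen, left out δ-like cells above the threshold for insulin, glucagon or pancreatic polypeptide. The insulin threshold was 2.74% of UMIs in Tg7 and 6.37% in Wild-type. This left 23 of 83 Tg7 cells and 43 of 69 Wild-type cells, with a ratio of 0.792 (0.628 to 0.991). In endothelial-like cells Ccnd2 was at 183 and 318 (0.577, 0.350 to 0.913), and in γ-like cells at 641 and 479 (1.34, 0.953 to 1.90). By class, the order of Ccnd2 levels in Tg7 therefore ran from α-like over γ-like, δ-like and β-like to endothelial-like cells, and in Wild-type from β-like over δ-like, α-like and γ-like to endothelial-like cells, with macrophage-like cells last in both. The counting intervals of neighbours in this order overlapped for γ-like and δ-like and for endothelial-like and macrophage-like cells in Tg7, and for δ-like and α-like and for γ-like and endothelial-like cells in Wild-type. Whether the ratio differed between β-like and α-like cells was not tested, since each class had 1 library per group.

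**Figure D5:**
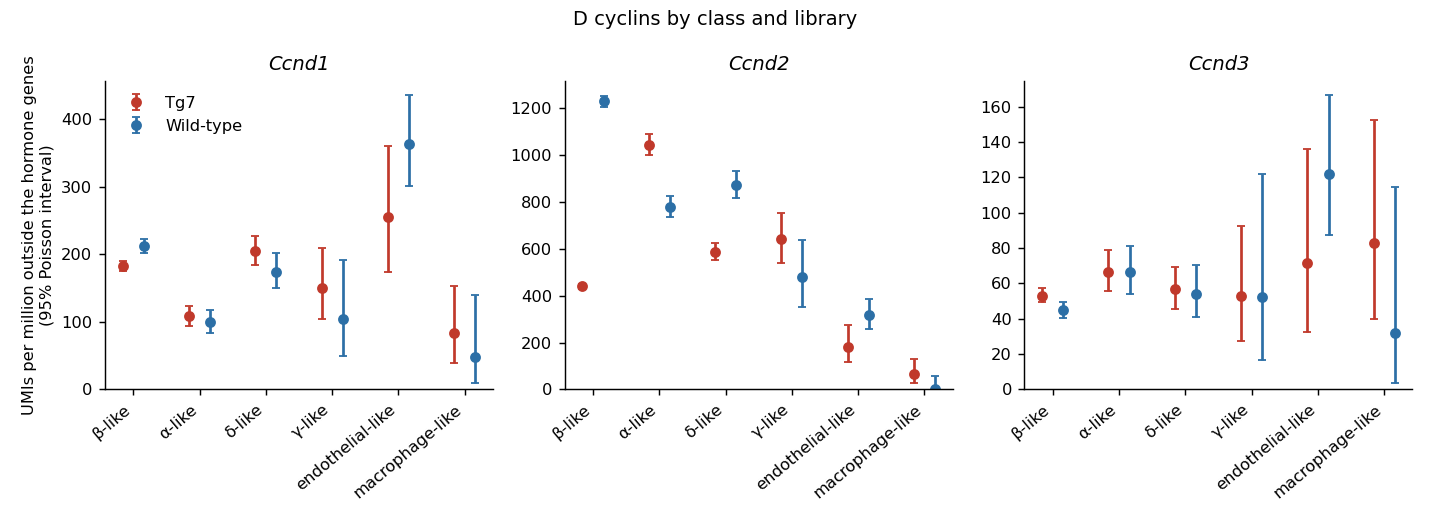
CPM outside the hormone genes (vertical axes, each from 0) of the D cyclins Ccnd1, Ccnd2 and Ccnd3 by class (horizontal axes), for Tg7 (red) and Wild-type (blue), with 95% Poisson intervals. Ccnd2 stood at 441 in Tg7 β-like cells, against 1230 in Wild-type ones, but at 1046 and 781 in α-like cells, while Ccnd3 differed less in β-like cells on this scale; scaled to all UMIs, Ccnd1 turned to higher in Tg7 β-like cells (1.51) and Ccnd3 reached 2.07.

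The rest of the α-like cells' members differed little between the libraries. Only 12 members had at least 20 UMIs, 6 higher and 6 lower in Tg7, with a median log2 ratio of 0.06 against -0.03 over 9545 genes. None passed 2-fold, against 3.11% of all genes higher and 2.82% lower. Pcna was at 25.5 CPM in Tg7 and 45.9 in Wild-type (0.555, 0.378 to 0.810), and Tubb5 at 105 and 134 (0.788, 0.646 to 0.963). Both were lower under either scaling. For the others the interval held 1. Hmgb2 was at 152 in Tg7 and 165 in Wild-type (0.919, 0.774 to 1.09), Ccnd1 at 108 and 99.4 (1.09, 0.880 to 1.36), and Ccnd3 at 66.4 and 66.5 (0.999, 0.763 to 1.31). Rrm1 was at 13.5 in Tg7 and 12.3 in Wild-type (1.09, 0.580 to 2.11), and Tyms at 8.99 and 6.85 (1.31, 0.574 to 3.18). Of the Mcm genes, Mcm4 was at 9.49 in Tg7 and 6.17 in Wild-type (1.54, 0.663 to 3.86), Mcm7 at 8.99 and 6.17 (1.46, 0.622 to 3.68), Mcm2 at 8.49 and 9.59 (0.885, 0.410 to 1.94), and Mcm6 at 9.99 and 16.4 (0.607, 0.318 to 1.15).

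Of the other cell cycle genes in β-like cells, 35 other mitotic genes had at least 20 UMIs, 21 higher and 14 lower in Tg7, 4 by at least 2-fold up and 1 down. Of 34 other replication genes, 22 were higher and 12 lower, 3 and 2 of them by 2-fold. Of 19 kinases, inhibitors and pocket proteins, 7 were higher and 12 lower, 2 and 3 of them by 2-fold. Higher by 2-fold were thus 11.4%, 8.82% and 10.5% of these lists in turn, against 10.5% of all genes. Lower by 2-fold were 2.86%, 5.88% and 15.8%, against 5.78% of all genes. The highest ratios were those of Cdk6, a partner of the D cyclins, with 27 UMIs in Tg7 and 1 in Wild-type (17.4, 2.88 to 714), of Cdkn2a, which encodes the Cdk4 and Cdk6 inhibitor p16 and also p19Arf, with 28 and 3 (6.03, 1.86 to 31.0), and of Racgap1, a regulator of cell division, with 325 and 65 (3.23, 2.47 to 4.29). The lowest were Spc25, with 883 UMIs in Tg7 and 3958 in Wild-type (0.144, 0.134 to 0.155), Orc6 of the origin recognition complex, with 82 and 183 (0.290, 0.220 to 0.378), and the Cdk inhibitor Cdkn2b, with 84 and 154 (0.353, 0.267 to 0.463). Spc25 lies 4860 bases from G6pc2, a β-cell gene with 3129 UMIs in Tg7 and 16694 in Wild-type (0.121), and on its other side 4565 bases from Nostrin, with 74 and 48 UMIs (0.996). Orc6 lies 115 bases from Vps35 (0.534). The part of reads from these neighbouring genes was not tested.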

How the data were processed

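Islets of 12-week-old mice were profiled by 10x Genomics single-cell RNA-seq, with 1 library per genotype. The authors deposited raw UMI counts per gene and barcode, made with Cell Ranger 3.0.2 and bcl2fastq 2.17.1.14, with STAR and the genome build mm10 named in the submitters' processing notes. No deposited cell types were used. Cells needed 1000 UMIs or more and no more than 20% mitochondrial UMIs, a filter the study does not state. The study removed doublets with its own caller; here Scrublet in scanpy 1.11.5 called 18 Tg7 and 12 Wild-type cells, which were kept. Clusters came from SCTransform (sctransform 0.4.2) and integration in Seurat 5.3.0 under R 4.3.3, with the members, the other cell cycle lists and the hormone genes left out, at resolution 0.5 over 20 components. A cluster was named after the marker list with the most genes among its 10 leading genes by fold, if no other list had as many there and at least 3 of its markers were detected; the rest stayed unnamed. UMIs were summed per class and library and scaled to UMIs outside the 7 hormone genes, since Tg7 and Wild-type cells differed in hormone share; TMM factors of edgeR 4.0.16 and all UMIs were alternatives.

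With 1 library per group no test across genes was run. Shares have Clopper-Pearson intervals, levels Poisson intervals and ratios conditional exact binomial intervals (scipy 1.17.1, numpy 2.4.6, Python 3.11.15; figures with matplotlib 3.10.9). The ratio script was tested on simulated data. Levels and ratios are given for all members with at least 20 UMIs in a class, and from the other lists for the 3 highest and 3 lowest ratios and the 5 genes with the most UMIs in cells with several mitotic members. The members and lists were chosen with earlier results of these data known. Other choices of filter, threshold, scaling and cells were tried, as were thinning to 2000 UMIs and limits of 3 and 8 mitotic members.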

Additional observations from a re-analysis of the deposited data

Results flagged for a closer look

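The ratio of Ccnd2 in Tg7 over Wild-type lay on opposite sides of 1 in the 2 main endocrine classes, with 0.358 for the β-like and 1.34 for the α-like class. The difference between the classes was not tested, since each had 1 library per group.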

How the results depend on the processing

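The counts of cells with several mitotic members were 7 in Tg7 and 4 in Wild-type; a limit of 3 mitotic members gave 8 in Tg7 and 7 in Wild-type, and a limit of 8 put 7.30% of Tg7 replication UMIs in such cells. In β-like cells, scaling to all UMIs gave a median log2 ratio of 1.06, with 20 members (57.1%) at least 2-fold higher and 0 at least 2-fold lower. This scaling moved all genes, with a median of 0.78, 33.6% at least 2-fold higher and 1.79% at least 2-fold lower. Without the Tg7 cell with the most mitotic UMIs, which was left out after the data were seen, 2 members were 2-fold higher and 2 lower, and Cenpf (-0.12) and Ube2c (-0.080) turned to lower; without the top cell of each library, also chosen after the data were seen, 4 were higher and 1 lower. Without all cells with several mitotic members, 1 was higher and 2 lower. Cenpf was then at -1.44, but from only 4 Tg7 and 7 Wild-type UMIs, under the minimum of 20 for a ratio. A minimum of 5 UMIs gave 2 lower members. Without integration only 4 Tg7 cells were named β-like, since the unnamed insulin-led clusters had no β marker among their leading genes, so that alternative gave no ratio; joining the unnamed insulin-led clusters, chosen after the data were seen, gave 11 higher members. For the other settings with 2-fold counts given here, 10.5% to 13.5% of all genes were higher by 2-fold and 5.66% to 7.08% lower. Ccnd2 was lower in Tg7 β-like cells under each setting that gave its ratio, with log2 ratios from -1.62 to -0.68. No paired analysis was possible because each group had 1 library and no test was run. Members with few UMIs are limited by depth: 5 of the 40 had under 20 UMIs in β-like cells and 28 had under 20 in α-like cells.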
